A study of Mus musculus with 2 samples.

Results

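The transcripts of 164 solute carrier (SLC) transporter genes were described in 2 polyadenylated RNA libraries of mouse bone marrow-derived macrophages, among 16218 genes with a symbol in the deposited table. The members were selected on their symbol (Slc, a family number, a letter and a member number) and on a summed deposited estimated count of at least 40 over both libraries. Of 269 genes whose symbol fitted, 97 lay under that minimum. A further 8 were left out by name (Slc2a1, Slc16a3, Slc7a2, Slc7a11, Slc40a1, Slc11a1, Slc30a1 and Slc39a14). The 164 genes belong to 43 SLC families and were sorted here into 11 substrate classes by family. The counts that chose them are the counts described, so their levels and differences are given as a description. Just inside the minimum lay Slc22a17, with 19 counts in WT and 27 in TKO, and Slc1a4, with 32 and 14. The nearest outside were Slc5a6, Slc37a1, Slc18a2, Slc6a9 and Slc25a43, each with a summed count of 34.

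Solute carriers are membrane proteins that move small molecules by facilitated diffusion, by exchange, or coupled to the gradient of an ion such as sodium or protons. Some sit in the plasma membrane and feed the cell, others in lysosomes, the Golgi apparatus or the inner mitochondrial membrane, where they pass substrates between compartments. In macrophages they supply amino acids and sugars during activation, recycle what phagolysosomes digest, and move iron, zinc and copper between cell and surroundings.

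Both libraries came from C57BL/6J mice, from marrow grown for 5 days with L929-conditioned medium as a source of macrophage colony-stimulating factor and then stimulated with 10 ng/ml lipopolysaccharide (LPS), a bacterial cell wall component, for 3 h. The WT library carried Lyz2-Cre alone, a recombinase driven by the lysozyme promoter of myeloid cells. The TKO library carried Lyz2-Cre, mir-106a~363-/-, mir-106b~25-/- and mir-17~92flox/flox, so that mir-106a~363 and mir-106b~25 are deleted in every cell and mir-17~92 only where Cre is active. The labels do not say how many mice contributed. There was 1 library per genotype, whose counts summed to 10764519 (WT) and 10836855 (TKO). No difference below therefore has a replicate check, no p-value was computed, and genotype cannot be told apart from any other difference between the 2 cultures. Mature microRNAs are not measured by polyadenylated RNA, so the deletion itself could not be checked. The host transcript Mir17hg had 16 counts in each library, and Mcm7, the host gene of mir-106b~25, had 608 and 496. Gene counts do not show where on a transcript the reads lay, so neither checks the deletion.

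The deleted clusters encode microRNAs of 4 seed families, and 1 member of each is shown with bases 2 to 8, the seed that pairs with a target, in capitals. Sequences are from RefSeq on GRCm38.p6, and all 4 lie within the mir-17~92 cluster on the plus strand of chromosome 14, miR-17-5p at chr14:115043684-115043706 and miR-92a-3p at chr14:115044476-115044496.
miR-17-5p: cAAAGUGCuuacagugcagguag
miR-18a-5p: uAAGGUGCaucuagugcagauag
miR-19a-3p: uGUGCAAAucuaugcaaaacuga
miR-92a-3p: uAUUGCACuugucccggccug
The site of each family is the 7 bases complementary to its seed, GCACTTT for miR-17, GCACCTT for miR-18, TTTGCAC for miR-19 and GTGCAAT for miR-92. Each was searched on the sense strand of the longest 3′ UTR that GENCODE M21 annotates for a gene.

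Matches are shown from 6 of the members that have a site and met the 1.5-fold criterion defined below. Not every match of these 6 is shown. Slc38a6 holds a further miR-92 match, Slc41a1 a further miR-17 match and a miR-92 match, and Slc35a2 a miR-92 match. Each line is 22 bases of annotated 3′ UTR on GRCm38, 5′ to 3′ on the sense strand, with the site in capitals. The matches lie at chr11:55235778-55235799 (plus strand, Slc36a1), chr10:89574523-89574544 (minus strand, Slc17a8), chr12:73311674-73311695 (plus, Slc38a6), chr2:122683815-122683836 and chr2:122681586-122681607 (minus, Slc30a4), chr1:131846753-131846774 (plus, Slc41a1), and chrX:7894439-7894460 and chrX:7894436-7894457 (plus, Slc35a2).
Slc36a1, miR-17 site: gtcaatacttgaagGCACTTTa
Slc17a8, miR-17 site: taaggagttataatGCACTTTa
Slc38a6, miR-92 site: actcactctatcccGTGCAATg
Slc30a4, miR-17 site: ctcatttcaacctaGCACTTTg
Slc30a4, miR-92 site: tgtctatttaaataGTGCAATc
Slc41a1, miR-17 site: tcccccacccctctGCACTTTc
Slc35a2, miR-18 site: aaataaaatgttttGCACCTTg
Slc35a2, miR-19 site: tgcaaataaaatgtTTTGCACc
The members named first (Slc36a1, Slc17a8 and Slc38a6) were higher in the TKO library and the others (Slc30a4, Slc41a1 and Slc35a2) lower. In Slc35a2 the matches to miR-18 and miR-19 overlap, since the last bases of TTTGCAC are the first of GCACCTT. A match describes the letters of the 3′ UTR and does not show that a microRNA bound there.

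The members took up 1.029% of WT counts and 1.046% of TKO counts. Levels of different genes are compared here by deposited FPKM, which corrects for transcript length. The mean FPKM over both libraries ran from 0.395 to 279.78 with a median of 8.25. It was at least 100 in 8 members, at least 10 in 67 and under 1 in 9. The 8 highest held 39.7% of the summed mean FPKM. At the top stood Slc2a6, a hexose transporter of intracellular membranes (GLUT6), with an FPKM of 224.87 in WT and 334.69 in TKO. Slc15a3, which exports histidine and small peptides from the lysosome, followed with 208.06 and 223.65. Slc25a3, the mitochondrial phosphate carrier, had an FPKM of 152.14 and 146.07, and Slc6a6, the taurine transporter, 145.45 and 149.27. Slc3a2, the heavy chain that carries the light chains of the Slc7 family to the cell surface, had 141.69 and 151.01. The others with a mean of at least 100 were the ADP/ATP carrier Slc25a5, the neutral amino acid light chain Slc7a8 and the zinc importer Slc39a1. Apart from Slc2a6, the members named in this paragraph with values were within 1.3-fold of equality.

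**Figure D1:**
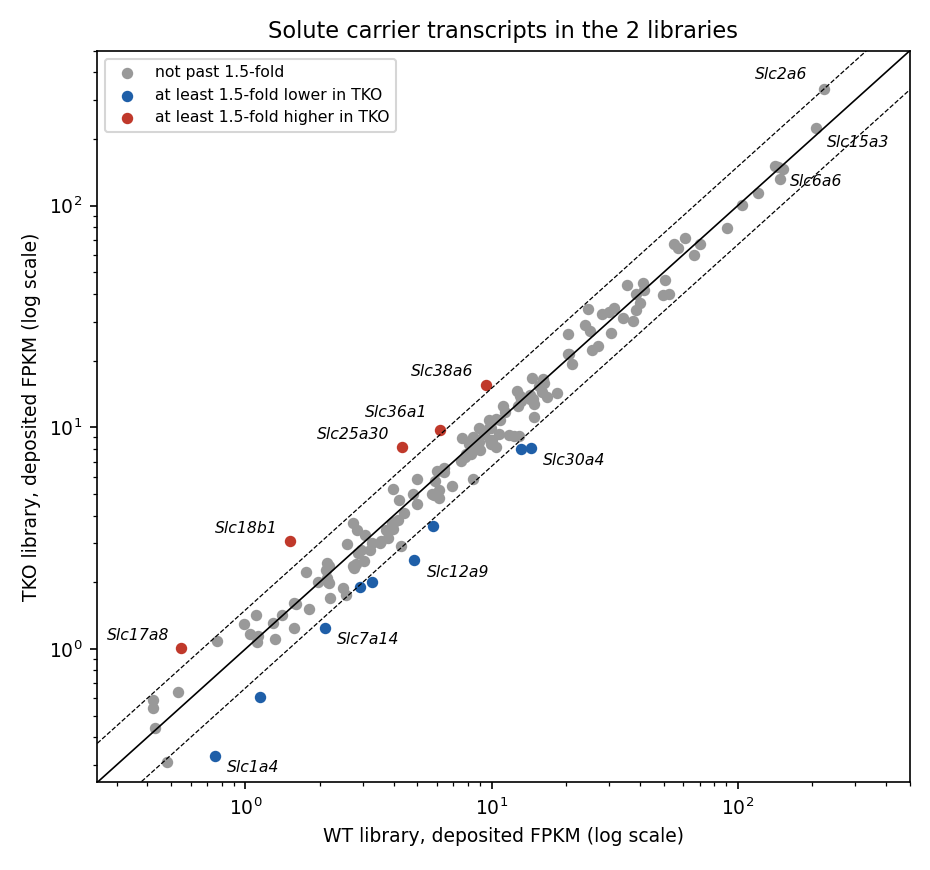
Deposited FPKM of the 164 solute carrier genes in WT (x axis) and TKO (y axis), both on log scales, 1 point per gene. The solid line is equality and the dashed lines are 1.5-fold; the red points are the 5 members that met the criterion upwards, the blue points the 9 that met it downwards, and Slc2a6 lies at the top right next to the upper dashed line.

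Differences between the libraries were small for most members. A member met the criterion when its log2 ratio of CPM (the count per 1000000 of a library's total, with 0.5 added to each) reached 1.5-fold and the 95% counting interval of its CPM ratio excluded equality. In all, 5 members (3.05%) were higher in TKO by this criterion, beside 2.74% of the 10783 genes with the same minimum count. Lower in TKO were 9 members (5.49%), beside 5.02% of those genes. Both shares are near those of all genes. None of the members was 2-fold apart on that log2 scale, and 135 (82.3%) lay within 1.3-fold of equality, against 80.9% of all genes at that minimum.

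At any size, the counting interval excluded equality upwards in 20 members (12.2%, beside 15.0% of all genes) and downwards in 36 (22.0%, beside 21.1%). That split depends on the scaling: with TMM scaling it was 27 higher and 29 lower, beside 19.6% and 16.5% of all genes, and with median-of-ratios scaling 24 and 30, beside 18.4% and 17.6%. The median log2 ratio of the members was -0.05 (95% order-statistic interval over genes -0.0985 to -0.0009), and that of all genes at the minimum -0.04. With TMM scaling these medians were -0.0021 and 0.0048. By sign, 68 members were above 0 and 96 below, and 81 and 83 with TMM scaling. Members named below beyond those that met the criterion, the 2 with the highest FPKM of each class and those with sites of several families were chosen after their values were seen.

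**Figure D2:**
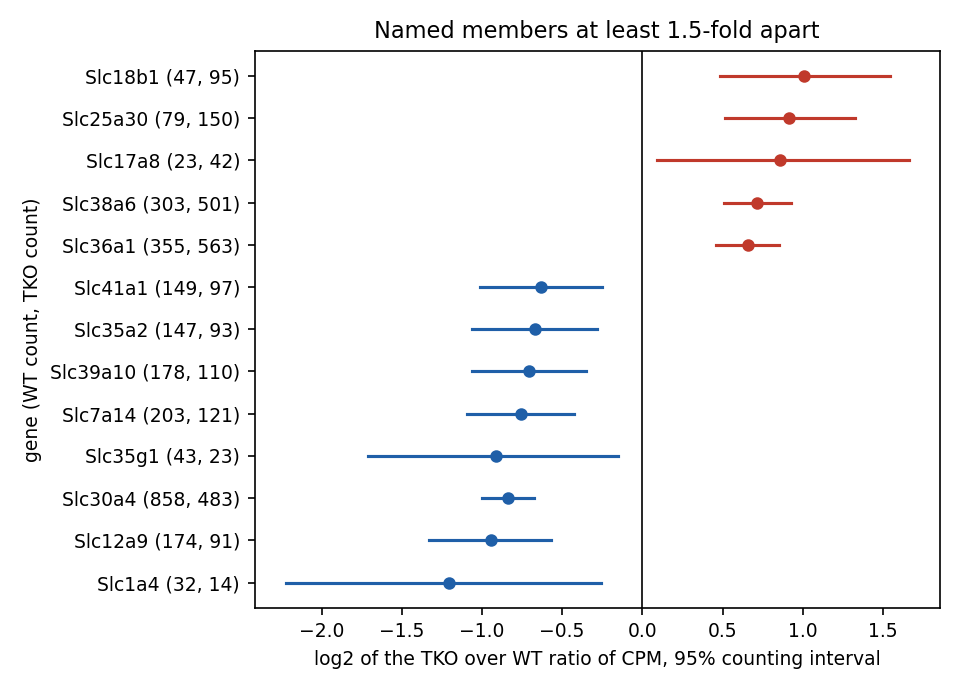
Log2 of the TKO over WT ratio of CPM (x axis) with its 95% counting interval for the members at least 1.5-fold apart that are described by name, with the WT and TKO counts beside each name. Slc30a4 has the narrowest interval of the lower members, and the intervals of Slc17a8, Slc35g1 and Slc1a4, with fewer than 50 counts in each library, reach close to 0.

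Amino acid and peptide transporters formed a class of 27 members. By the criterion, 2 were higher and 2 lower (7.41% each, beside 2.74% and 5.02% of all genes). The class median log2 ratio was -0.02, against -0.04 for all genes. Both of those higher are members of families that carry neutral amino acids. Slc36a1, a proton-coupled transporter that releases small amino acids from lysosomes, had 355 counts in the WT and 563 in the TKO library (FPKM 6.18 and 9.75). It was 1.58-fold higher in TKO (95% counting interval 1.38 to 1.80). Slc38a6, of the sodium-coupled neutral amino acid family, had 303 and 501 counts (FPKM 9.48 and 15.57) and was 1.64-fold higher (1.42 to 1.90). Slc36a1 spans chr11:55204322-55236330 and Slc38a6 chr12:73286739-73361998 on GRCm38.

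Both amino acid transporters lower by the criterion are thinly expressed. Slc7a14, of the cationic amino acid branch of the Slc7 family, had 203 and 121 counts (FPKM 2.10 and 1.25), 1.69-fold lower (1.34 to 2.13). Slc1a4, a sodium-dependent exchanger of alanine, serine and cysteine, had 32 and 14 counts (FPKM 0.75 and 0.33), 2.30-fold lower (1.19 to 4.67). Its relative Slc1a5, the main glutamine exchanger, had 267 and 237 counts, and its interval included equality (1.13-fold lower, 0.95 to 1.36).

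Among the members of the class with a mean FPKM over 20, differences were under 1.3-fold apart from Slc6a8, the creatine transporter, with 1065 and 1487 counts (FPKM 24.69 and 34.26), 1.39-fold higher (1.28 to 1.502). Slc15a3 had 5257 and 5687 counts and was 1.07-fold higher (1.03 to 1.12). Slc16a10, a carrier of aromatic amino acids, had 3267 and 3673 counts and was 1.12-fold higher (1.07 to 1.17). Slc43a2, a facilitator of branched-chain and other large neutral amino acids, had 2136 and 2489 counts and was 1.16-fold higher (1.09 to 1.23). Slc6a6 had 9763 and 10083 counts, and its interval reached equality (1.03-fold higher, 1.00 to 1.05), which it excluded with TMM scaling.

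The Slc7 family holds light chains that pair with the heavy chain Slc3a2 and cationic amino acid transporters that work without it, here Slc7a1 and Slc7a14. All 6 Slc7 members had log2 ratios below 0 (5 of 6 with TMM scaling), beside 6173 of the 10783 genes at the minimum without TMM scaling. The interval excluded equality in the light chains Slc7a5 and Slc7a8 and in Slc7a1 and Slc7a14 (Slc7a5 and Slc7a14 with TMM scaling). Of all genes at the minimum, 21.1% had an interval that excluded equality downwards, and 16.5% with TMM scaling. Slc7a5, the large neutral amino acid light chain, had 262 and 209 counts (FPKM 6.89 and 5.46), 1.26-fold lower (1.05 to 1.52). Slc7a8 had 5327 and 5080 counts and was 1.06-fold lower (1.02 to 1.10), which included equality with TMM scaling. Their partner Slc3a2 had 3937 and 4221 counts and was 1.06-fold higher (1.02 to 1.11). Slc7a11, the cystine/glutamate light chain left out of the members, was higher as well, with 9741 and 10759 counts (1.10-fold, 1.07 to 1.13). Slc7a2, the other Slc7 gene left out by name, had 7027 and 5687 counts and was 1.24-fold lower (1.201 to 1.29). Slc7a7, which exports arginine from macrophages with the same heavy chain, had 380 and 376 counts and a log2 ratio of -0.02 (0.02 with TMM scaling). In lysosomes, Slc38a9, an arginine sensor of the mTORC1 pathway, had 128 and 109 counts and an interval that included equality (1.18-fold lower, 0.91 to 1.54).

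**Figure D3:**
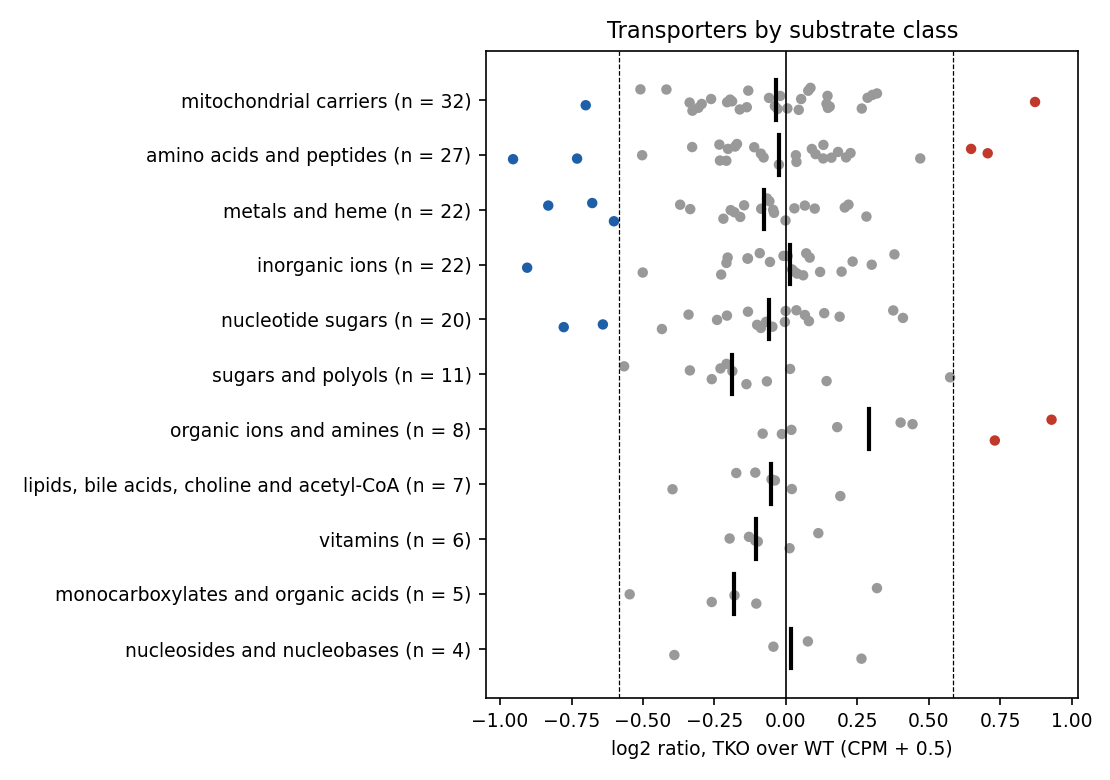
Log2 ratio of TKO over WT (x axis, CPM with 0.5 added) of each member, in rows by substrate class with the number of members; the bar is the class median and the dashed lines are 1.5-fold. The medians of 10 classes lie between -0.19 and 0.02, and that of organic ions and amines at 0.29.

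The sugar and polyol carriers numbered 11, and none met the criterion. Slc2a6 had 5160 and 7738 counts and was 1.49-fold higher in TKO (1.44 to 1.54). Its log2 ratio of 0.57 was just under the threshold and passed it with TMM scaling (0.62) and with median-of-ratios scaling (0.61). The gene spans chr2:27021363-27028000. Its relatives among the members were few in counts: Slc2a3, a high-affinity glucose transporter, had 56 and 57, Slc2a8 had 80 and 69, and Slc2a9, a urate and hexose transporter, 123 and 118. The relative Slc2a1, left out of the members, had 2069 and 1772 counts (FPKM 74.53 and 63.42) and was 1.18-fold lower (1.10 to 1.25).

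Of the 11 members, 8 had log2 ratios below 0, also with TMM scaling, beside 6173 of the 10783 genes. The interval excluded equality downwards in Slc37a2 and Slc5a3, and in none with TMM scaling. The class median was -0.19. The summed level of the class was 697 CPM in WT and 909 in TKO, 1.31-fold higher (1.27 to 1.34). Without Slc2a6 it was 217 and 195 CPM, 1.11-fold lower (1.05 to 1.18). Slc37a2, a sugar phosphate exchanger of the endoplasmic reticulum, had 1625 and 1486 counts (FPKM 34.16 and 31.03) and was 1.10-fold lower (1.03 to 1.18), which included equality with TMM scaling. Slc5a3, the sodium-coupled myo-inositol transporter, had 57 and 37 counts and a ratio 1.55-fold lower (1.008 to 2.41, including equality with TMM scaling), but its log2 ratio with 0.5 added, -0.57, fell short of the threshold.

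**Figure D4:**
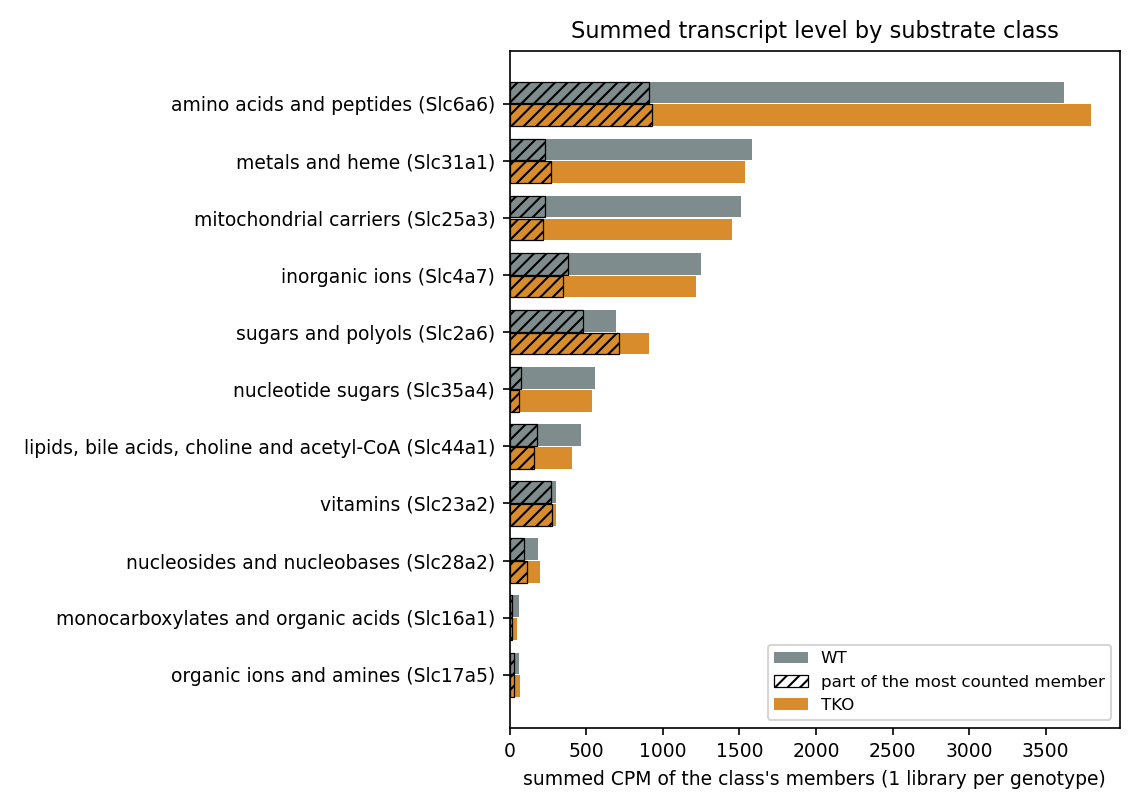
Summed CPM of the members of each substrate class (x axis, from 0) in the WT and TKO libraries, with the part of the most counted member, named in brackets, hatched. The sugar and polyol bars differ through the hatched Slc2a6 part, 479 and 714 CPM.

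Mitochondrial carriers of the Slc25 family, which move metabolites across the inner membrane, were the largest class with 32 members. The interval excluded equality upwards in 2 (6.25%, beside 15.0% of all genes) and downwards in 9 (28.1%, beside 21.1%). With TMM scaling these were 5 and 8, beside 19.6% and 16.5% of all genes. By the criterion, 1 was higher and 1 lower (3.12% each, beside 2.74% and 5.02% of all genes). The class median was -0.03 (0.01 with TMM scaling). Slc25a30, a carrier first described in kidney, had 79 and 150 counts (FPKM 4.32 and 8.16), 1.89-fold higher (1.43 to 2.51).

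The ADP/ATP carriers exchange the energy currency of the cell between matrix and cytosol. Slc25a5 had 2076 and 1868 counts and was 1.12-fold lower (1.05 to 1.19), and Slc25a4, the other ADP/ATP carrier, had 1093 and 965 and was 1.14-fold lower (1.04 to 1.24). The aspartate/glutamate carriers of the malate-aspartate shuttle were lower as well, Slc25a12 with 530 and 434 counts (1.23-fold, 1.08 to 1.40) and Slc25a13 with 285 and 200 (1.43-fold, 1.19 to 1.73). The citrate carrier Slc25a1 had 545 and 608 counts (1.11-fold higher, 0.99 to 1.25), which excluded equality with TMM scaling.

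The iron importers of mitochondria differed in sign. Slc25a37 (mitoferrin-1) had 1610 and 2000 counts (FPKM 35.66 and 44.01) and was 1.23-fold higher (1.15 to 1.32). Slc25a28 (mitoferrin-2) had 250 and 187 counts (FPKM 14.90 and 11.08) and was 1.35-fold lower (1.11 to 1.64). Slc25a39, the mitochondrial glutathione importer, had 896 and 713 counts and was 1.27-fold lower (1.15 to 1.40). These directions held with TMM scaling, with intervals that excluded equality.

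Metal and heme transporters numbered 22, of which none was higher by the criterion and 3 were lower (13.6%), beside 2.74% and 5.02% of all genes. The class median was -0.08 (-0.03 with TMM scaling). Slc30a4, a zinc exporter that loads zinc from the cytosol into vesicles, had 858 and 483 counts (FPKM 14.41 and 8.06) and was 1.79-fold lower (1.60 to 2.00). It was the only member whose interval lay wholly beyond 1.5-fold. It spans chr2:122681233-122702663, and exons of the antisense gene 4930417H01Rik overlap it on the opposite strand. No source used here gives the strand setting of the counting, so reads of the 2 cannot be told apart. The limit is not particular to Slc30a4: exons of another gene overlap those of 49 members, 2 of which met the criterion. Among the 49 are Slc15a3, Slc16a6, Slc35a4 and Slc4a2, and Slc5a3, which Mrps6 overlaps on the same strand. Slc39a10, a zinc importer of the plasma membrane, had 178 and 110 counts (FPKM 3.27 and 2.01), 1.63-fold lower (1.28 to 2.09). Slc41a1, a magnesium transporter, had 149 and 97 counts (FPKM 2.93 and 1.90) and was 1.55-fold lower (1.19 to 2.02). It no longer met the criterion with TMM or median-of-ratios scaling.

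Zinc exporters of the Slc30 family lower the zinc of the cytosol and importers of the Slc39 family raise it. Of 5 Slc30 members, 4 had log2 ratios below 0 (2 with TMM scaling), and of 10 Slc39 members, 8 (7 with TMM scaling). Without TMM scaling, 6173 of the 10783 genes at the minimum were below 0. The interval excluded equality downwards in Slc30a4 and Slc39a10, as given above. It also did so in Slc30a6, a zinc transporter of the Golgi with 272 and 216 counts (1.27-fold lower, 1.06 to 1.52). The most abundant importer, Slc39a1, had 2639 and 2552 counts (FPKM 104.49 and 100.41), and its interval included equality (1.04-fold lower, 0.99 to 1.10). Slc39a6 had 535 and 622 counts and was 1.15-fold higher (1.03 to 1.299).

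Copper and iron carriers also differed in direction. The copper importer Slc31a1 had 2501 and 2931 counts (FPKM 61.30 and 71.39), 1.16-fold higher (1.10 to 1.23), and its relative Slc31a2 had 1090 and 1335 (FPKM 55.19 and 67.17), 1.22-fold higher (1.12 to 1.32). Slc11a2, which takes ferrous iron out of endosomes, had 1537 and 1196 counts (FPKM 37.56 and 30.04), 1.29-fold lower (1.199 to 1.40). Slc48a1, which brings heme out of phagolysosomes, had 1919 and 1845 counts (FPKM 70.43 and 67.28), with an interval that included equality (1.05-fold lower, 0.98 to 1.12). The iron exporter Slc40a1, left out of the members, had 27 and 67 counts and was 2.46-fold higher (1.56 to 4.01).

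Inorganic ion transporters numbered 22, with a class median of 0.01, and 1 was lower by the criterion (4.55%, beside 5.02% of all genes). Slc12a9, of the cation-chloride cotransporter family, had 174 and 91 counts (FPKM 4.85 and 2.52), 1.92-fold lower (1.49 to 2.51). Its gene spans chr5:137314558-137340070. The related potassium-chloride cotransporter Slc12a4 had 1657 and 1521 counts (1.10-fold lower, 1.02 to 1.18, including equality with TMM scaling).

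Proton and bicarbonate carriers set the acidity of the cytosol and of endosomes. Slc4a7, the sodium bicarbonate cotransporter and the class's highest by FPKM (50.86 and 46.34), had 4093 and 3753 counts and was 1.10-fold lower (1.05 to 1.15). The anion exchanger Slc4a2 had 1753 and 1527 counts and was 1.16-fold lower (1.08 to 1.24). Slc9a9, an exchanger of endosomes, had 490 and 347 counts (FPKM 12.96 and 9.12) and was 1.42-fold lower (1.24 to 1.64).

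The nucleotide sugar class holds the whole Slc35 family, sorted by family name, and the substrate of each member was not checked. Nucleotide sugar transporters supply the Golgi and the endoplasmic reticulum with activated sugars for glycosylation. Of 20 members, none was higher by the criterion and 2 were lower (10%), beside 2.74% and 5.02% of all genes. The class median was -0.06 (-0.01 with TMM scaling). Slc35a2, which imports UDP-galactose into the Golgi, had 147 and 93 counts (FPKM 5.76 and 3.59), 1.59-fold lower (1.22 to 2.09). Slc35g1 had 43 and 23 counts (FPKM 1.15 and 0.61), 1.88-fold lower (1.11 to 3.27). Slc35b2, the importer of the sulfate donor PAPS, had 285 and 211 counts and was 1.36-fold lower (1.13 to 1.63). Slc35a4, the class's highest by FPKM (25.59 and 22.34), had 779 and 679 counts and was 1.15-fold lower (1.04 to 1.28). Slc35f6 had 679 and 716 counts with an interval that included equality. The CMP-sialic acid transporter Slc35a1 had 60 and 82 counts, too few to separate the libraries (1.36-fold higher, 0.96 to 1.93).

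Organic ion and amine transporters numbered 8 and had the highest class median, 0.29 (0.33 with TMM scaling), on few counts. With a summed count of at least 200, which left only Slc17a5, the median was -0.01, and with no minimum count it was -0.0048. The class summed 617 counts in WT and 708 in TKO, and 2 members (25%) were higher by the criterion, beside 2.74% of all genes. Slc18b1, a vesicular polyamine transporter, had 47 and 95 counts (FPKM 1.52 and 3.07), 2.01-fold higher (1.40 to 2.91). Slc17a8, a vesicular glutamate transporter, had 23 and 42 counts (FPKM 0.55 and 1.01), 1.81-fold higher (1.07 to 3.16). Slc17a5 (sialin), which exports sialic acid from lysosomes and was the class's highest by FPKM (8.65 and 8.54), had 303 and 302 counts. The carnitine transporter Slc22a5 had 97 and 92 counts (1.06-fold lower, 0.79 to 1.43).

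The remaining 4 classes held no member that met the criterion. Among 4 nucleoside and nucleobase carriers, the sodium-coupled importer Slc28a2 had 1018 and 1232 counts (FPKM 24.05 and 28.92), 1.202-fold higher (1.11 to 1.31). The equilibrative transporter Slc29a1 had 404 and 309 counts (FPKM 18.42 and 14.24), 1.32-fold lower (1.13 to 1.53). The intervals of Slc43a3, a nucleobase carrier with 238 and 253 counts, and of Slc29a3, a nucleoside carrier of lysosomes with 335 and 327, included equality. Among 7 carriers of lipids, choline and related substrates, Slc27a1, which promotes fatty acid uptake, had 1592 and 1216 counts (FPKM 52.71 and 40.02), 1.32-fold lower (1.22 to 1.42). The choline transporter Slc44a1 had 1948 and 1738 counts (FPKM 66.17 and 59.75) and was 1.13-fold lower (1.06 to 1.204).

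Monocarboxylate and organic acid carriers were 5, with a median of -0.18. Slc16a6 had 194 and 132 counts (FPKM 4.30 and 2.90), 1.48-fold lower (1.18 to 1.86). Slc16a1, an importer and exporter of lactate and pyruvate, had 183 and 153 counts with an interval that included equality (1.204-fold lower, 0.97 to 1.502). Slc16a7 had 105 and 98 counts and the dicarboxylate transporter Slc13a3 138 and 122, with intervals that also included equality. Slc16a3, the lactate exporter left out of the members, had 1632 and 1154 counts, 1.42-fold lower (1.32 to 1.54).

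Vitamin carriers were 6, and none had an interval that excluded equality. Slc23a2, which imports ascorbate, made up most of their counts with 2928 and 2974 (FPKM 41.47 and 41.86), 1.009-fold higher (0.96 to 1.06). Slc52a2, a riboflavin transporter, had 128 and 120 counts. The folate carriers Slc19a1, with 55 and 51 counts (1.09-fold lower, 0.73 to 1.62), and Slc46a1, with 60 and 52 (1.16-fold lower, 0.79 to 1.72), had wide intervals that included equality.

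Every member has an annotated 3′ UTR, as do 10412 of the genes at the same minimum. At least 1 site of a deleted family was found in 66 members (40.2%), against 34.2% of those genes. By family, miR-17 sites were in 15.9% of members and 15.0% of genes, miR-18 sites in 13.4% and 9.33%, miR-19 sites in 13.4% and 13.6%, and miR-92 sites in 9.76% and 7.64%. The members with a site had longer 3′ UTRs (median 2611.5 bases) than those without (944.5 bases). Over all members the median was 1612 bases, against 1221 bases over the 10412 genes. The part of 3′ UTR length in the shares with a site was not tested.

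Of the 66 members with a site, 3 were higher by the criterion and 6 lower. Of the 98 without, 2 were higher and 3 lower. As shares, 4.55% of members with a site were higher and 9.09% lower, beside 2.78% and 4.18% of all genes with a site. Without a site, 2.04% of members were higher and 3.06% lower, beside 2.40% and 5.29% of all genes. The median log2 ratio was -0.03 with a site and -0.07 without. Over all genes the medians were -0.01 and -0.06. By family, the members' medians were -0.02 for miR-17, -0.0022 for miR-18, -0.06 for miR-19 and 0.07 for miR-92. In 17 members sites of 2 or more families occurred. None of these was higher by the criterion, 3 were lower (Slc30a4, Slc35a2 and Slc41a1), and their median was 0.02. Over all 961 genes with sites of 2 or more families, 4.16% were higher by the criterion, 3.95% lower, and the median was 0.03. Among the most abundant of the 17, Slc31a2 (miR-19 and miR-92) was higher, as given above, and Slc4a7 (miR-17 and miR-19) was lower. Slc41a2 (miR-17 and miR-18), a magnesium transporter, had 496 and 523 counts with an interval that included equality.

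**Figure D5:**
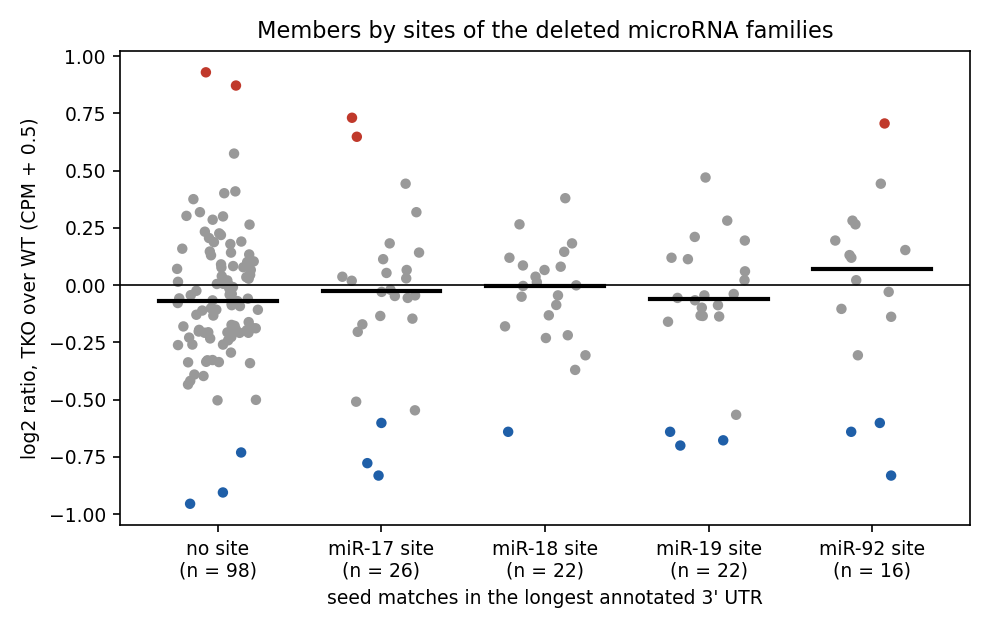
Log2 ratio of TKO over WT (y axis, CPM with 0.5 added) of the members without a seed match of the deleted microRNAs and with matches to each family in the longest annotated 3′ UTR, with medians as bars. The medians lie between -0.07 and 0.07, and a member with sites of several families appears once for each.

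Transporters and partners outside the symbol rule were counted in the same way. Of 59 SLC genes filed under other names, 40 reached the minimum, with a median of -0.14, beside -0.04 for all genes. None was higher by the criterion and 3 were lower (7.5%), beside 2.74% and 5.02% of all genes. The 3 were the organic anion transporter Slco2b1 with 38 and 14 counts (2.73-fold), Pqlc1 with 169 and 89 (1.91-fold) and Sfxn5 with 68 and 41 (1.67-fold). The most abundant, the mitochondrial uncoupling protein Ucp2, had 5497 and 4901 counts (FPKM 324.75 and 287.71), 1.13-fold lower (1.09 to 1.17).

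Accessory and regulatory proteins set how much transporter reaches the membrane. Of 18 listed, 14 reached the minimum, of which 1 was higher and 1 lower by the criterion (7.14% each, beside 2.74% and 5.02% of all genes). The kinase Sgk1, which promotes surface expression of several transporters, had 1014 and 1639 counts and was 1.61-fold higher (1.48 to 1.74). Nedd4, a ubiquitin ligase that directs transporters to degradation, had 245 and 108 counts and was 2.28-fold lower (1.81 to 2.89). Bsg, a chaperone of Slc16 monocarboxylate carriers, had 2958 and 2834 counts with an interval that included equality. Emb, also listed, had 1539 and 1959 counts and was 1.26-fold higher (1.18 to 1.35). Of 37 ABC transporters, the ATP-driven pumps, 28 reached the minimum. By the criterion, Abcb1a was higher (42 and 78 counts, 1.84-fold) and Abca9 lower (130 and 67 counts, 1.95-fold), 3.57% of the 28 each. The median of the 28 was 0.05, beside -0.04 for all genes.

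Markers of the labelled cell type were present and those of other cells were mostly few. All 8 macrophage markers were in the table, none met the criterion, and their sum was 7171 CPM in WT and 7359 in TKO. Of 9 stromal markers, 5 were lower by the criterion and none higher, and their sum was 400 CPM in WT and 158 in TKO, 2.53-fold lower. The 5 lower were the matrix genes Col1a1 (2055 and 550 counts), Col1a2 (1166 and 428), Col3a1 (217 and 60), Postn (271 and 79) and Dcn (51 and 18). The intervals of the others included equality: Pdgfrb had 478 and 510 counts, Thy1 33 and 39, Pdgfra 32 and 30 and Lum 2 and 1. In bulk RNA, fewer cells of a type and less RNA per cell cannot be told apart, and the part of stromal transcripts in the lower members was not tested. Neutrophil markers summed to 46 and 43 counts, T and B cell markers to 58 and 52, and dendritic markers to 31 and 49. Of 5 erythroid markers 2 were in the table, of which Hba-a1 had 1 count in each library and Klf1 1 in WT and 0 in TKO.

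Estimated counts can be fractional where reads were shared between genes. That was so in 37 members (22.6%), the same share as among all genes at the minimum. Of the 14 members that met the criterion, 6 had such estimates, 4 of the 5 higher (Slc18b1, Slc17a8, Slc38a6 and Slc36a1) and 2 of the 9 lower (Slc35g1 and Slc7a14). Their ratios are less certain than the counting intervals show.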

How the data were processed

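The members and gene lists were chosen with earlier results of these data known. The authors deposited 1 table with, for each gene, estimated counts and FPKM of the 2 libraries, in which an FPKM of 0.01 stands for 0. Per the submitters' processing notes, the tools were HISAT2 2.0.4, Bowtie2 2.2.5 and RSEM 1.2.12 and the build mm10, with no roles stated. For annotation and strand setting, the sources used here name nothing. The deposited log2 ratio, p-value, the adjusted value (treated as a score) and gene length, per the file headers, were not used.

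Estimated counts were rounded to whole numbers. The 1 entry without a symbol (9.29e-06% of WT and 9.23e-06% of TKO counts) was left out. CPM is the count per 1000000 of the library total, and the log2 ratio is of TKO over WT with 0.5 CPM added to each, which understates differences of low genes. Folds are CPM ratios without that addition, with the exact Clopper-Pearson conditional binomial interval. Intervals cover counting error only, because 1 library per genotype holds no spread between cultures. PCR copies could not be recognised without molecular identifiers, so even the counting error may be understated. A count of 0 allows up to 3 counts, 0.279 CPM in WT and 0.277 in TKO. With 1 library per genotype no test across replicates was possible.

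Named genes are the members past the threshold, the 2 with the highest mean FPKM of each class, those next to the minimum count, and up to 5 with sites of 2 or more families. Others were chosen after their values were seen. A few genes that the rule names are not reported here by name. Gene spans are from RefSeq (GRCm38.p6), in which all 164 members were found, 3′ UTRs from GENCODE M21. Python 3.11.15, pandas 2.3.3 and scipy 1.17.1 were used, with scaling factors from edgeR 4.0.16 (TMM) and DESeq2 1.42.0 (median of ratios). The calls were run on simulated counts that varied by counting error alone. Those counts held no spread between cultures, so that run cannot show whether a call would recur in other cultures. Alternatives were the pseudocount, the scaling, the deposited FPKM, the minimum count, the 8 omitted genes and a stricter interval.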

Additional observations from a re-analysis of the deposited data

How the results depend on the processing

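No paired analysis was possible because each genotype had 1 library, and no replicate could be left out. The main counts were 5 members higher and 9 lower. They were 5 and 10 without a pseudocount and with the deposited FPKM (adding Slc5a3), 5 and 8 with a pseudocount of 1 (without Slc41a1), and 6 and 8 with TMM or median-of-ratios scaling (adding Slc2a6, without Slc41a1). No minimum count gave 6 and 10 of 261 genes, and keeping the 8 omitted genes gave 6 and 9. With a summed count of at least 200, 3 of 125 members were higher and 7 lower, since Slc17a8, Slc18b1, Slc1a4 and Slc35g1 have fewer counts. Requiring the interval to lie beyond 1.5-fold left 0 higher and 1 lower, Slc30a4, the only call kept under every alternative. No member that met the criterion changed sign under any alternative. The class median of organic ions and amines, 0.29, was -0.01 with a summed count of at least 200 and -0.0048 with no minimum count, and that of inorganic ions, 0.01, was -0.03 and -0.0073. The alternatives for counts at any size were added after the data were seen. Depth limits the 38 members with under 100 counts in both libraries: in all 38 the interval's upper bound was more than 1.5 times its lower bound.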
